A study of Mus musculus with 2 samples.

Results

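Complement is the set of blood and tissue proteins that marks particles and dying cells for uptake, and 8 of its genes were followed through the cells of a healing mouse skin wound. They were taken by symbol from the gene list of the count table, in which all 8 of the 8 were found among 27998 genes: C1qa, C1qb and C1qc, the chains of the recognition molecule C1q, the components C3, C4b and Cfb, and the receptors C3ar1 and C5ar1. The data were 2 single-cell RNA libraries of 1.8 cm wounds of the back skin, from a punch of 5 mm at the wound centre taken 2 days after the scab came off. WT_LW came from wounds given PBS and TLR9agonist_LW from wounds given ODN2395, on days 0, 3 and 6 in both cases. ODN2395 is a CpG oligodeoxynucleotide that activates the DNA sensor TLR9. The labels and the study's methods give PBS for WT_LW, but a legend of its healing measurements gives a control oligodeoxynucleotide. All mice were wild type, and by the study's methods male C57BL/6J mice aged 6 to 8 weeks. Each library held pooled cells of several mice, so there was 1 library per group, no replicate and no test between the groups. Every interval below is an exact 95% interval that covers counting error only, and differences between mice, preparations and treatment cannot be told apart.

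Complement can be started in 3 ways that meet at C3. C1q binds antibody, pathogens or dying cells and, with its proteases C1r and C1s, starts the classical pathway, in which C4 and C2 are cut. Factor B, made from Cfb, forms the alternative pathway's enzyme on deposited C3 fragments and so amplifies them. The small fragments C3a and C5a call and activate leukocytes through the receptors encoded by C3ar1 and C5ar1. Liver makes most circulating C3, C4 and factor B, whereas C1q is made largely by tissue macrophages and dendritic cells, and many stromal cells can make components locally.

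The 3 C1q genes lie side by side in one orientation, and their products assemble into a single molecule. In GENCODE M21 on GRCm38 they occupied the minus strand of chromosome 4 within 18675 bases (136880129 to 136898803), with no other annotated gene inside. C3 lay on chromosome 17 (57203970 to 57228136), C4b on chromosome 17 (34728380 to 34743882) and Cfb on chromosome 17 (34856374 to 34862518). C3ar1 was on chromosome 6 (122847138 to 122856161) and C5ar1 on chromosome 7 (16246743 to 16259540), and all 8 genes are protein coding and on the minus strand. The submitters' processing notes name the build mm9, so these positions were joined by Ensembl identifier. C4b has a near-identical neighbour, C4a, which was not in the count table, and Cfb is overlapped on its own strand by the readthrough gene Gm20547, so that reads of these 2 genes may have been split or dropped by the counting and their levels are uncertain.

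RefSeq promoter windows of GRCm38.p6 were at hand for 5 of the 8 genes, and the stretches upstream of every annotated start are shown for C1qb and C1qc, whose levels moved together from cell to cell, and for C3, which differed most between the libraries among stromal cells. They read 5′ to 3′ on the minus strand and span chr4:136886201-136886450, chr4:136893066-136893164 and chr17:57228137-57228386, and capitals mark the letters GAGGAA on either strand, the core of the site of the myeloid factor PU.1:
C1qb: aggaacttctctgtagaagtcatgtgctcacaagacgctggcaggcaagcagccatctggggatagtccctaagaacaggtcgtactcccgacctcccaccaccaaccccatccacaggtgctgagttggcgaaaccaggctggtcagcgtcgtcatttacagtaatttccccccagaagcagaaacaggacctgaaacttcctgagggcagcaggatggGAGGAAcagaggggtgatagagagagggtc
C1qc: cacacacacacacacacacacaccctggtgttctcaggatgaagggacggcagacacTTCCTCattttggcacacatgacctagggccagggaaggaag
C3: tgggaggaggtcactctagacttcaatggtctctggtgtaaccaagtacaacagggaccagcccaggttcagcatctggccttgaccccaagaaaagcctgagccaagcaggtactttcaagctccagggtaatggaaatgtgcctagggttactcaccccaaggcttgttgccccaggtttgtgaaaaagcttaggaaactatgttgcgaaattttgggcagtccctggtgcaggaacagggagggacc
The letters stood once in the C1qb window, 30 to 25 bases before its end, and once on the other strand in the C1qc window, 42 to 37 bases before its end. They occur in 23.3% of 32851 promoter windows of 250 bases and in 9.91% when 99 bases are read. The C3 window held none on either strand, nor TTCNNNGAA (STAT-type, in 7.02% of 250-base windows), GGGANTTTC (NF-kB-type, 0.941%) or TTTCNNTTT (interferon-stimulated element type, 9.37%). The C3ar1 window of 246 bases, not shown, held no GAGGAA on either strand. It held a match of the interferon-stimulated element type, found in 9.28% of windows of that length. All of these are matches of letters in short windows and say nothing of binding.

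After filtering, WT_LW held 10355 cells with 85267651 unique molecular identifiers (UMIs, one per captured RNA molecule) and TLR9agonist_LW 11793 cells with 110970846, at medians of 5521 and 6083 UMIs per cell. Cells were put into classes by a gate on marker genes, none of them a complement gene, and 10.6% and 15.95% of cells lay near a gate threshold. Between the 2 libraries 47 cell barcodes were shared. The gate took 1844 and 1176 macrophage and dendritic cells, 1022 and 2451 fibroblasts, 3121 and 2536 T cells, 687 and 400 Schwann cells, 599 and 375 endothelial cells, and 46 and 205 neutrophils in WT_LW and TLR9agonist_LW. Each gate had markers of its own class, and none of another, among its 10 leading genes, sub-gates being compared only within their parent class. Upper fibroblasts of TLR9agonist_LW had F13a1 and Ccl8, markers of the Mrc1 macrophage sub-gate, among theirs. The gate left 1626 and 2491 cells unplaced, of which 229 and 330 scored best as macrophage and dendritic cells. Levels are UMIs per 1000000 UMIs of the class (CPM), counted at the 3′ end and not divided by gene length, so they are compared between classes and libraries and not between genes. The level in T cells served as the measure of free RNA. The median gene was lower in TLR9agonist_LW by 0.25 (log2) in the macrophage and dendritic gate, 0.28 in fibroblasts and 0.16 in Schwann cells, and ratios are given before this shift unless it is named.

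The 8 genes divided by cell type as the plot by class shows, and the division was not the same in the 2 libraries. In WT_LW, 83.2% of all C3 UMIs were in the macrophage and dendritic gate and 6.20% in fibroblasts. In TLR9agonist_LW these shares were 25.8% and 61.6%, while the level over all cells was 48.9 CPM beside 43.9 CPM in WT_LW. Over all cells, fewer cells of a type and less RNA per cell cannot be told apart, so the classes are taken in turn.

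**Figure D1:**
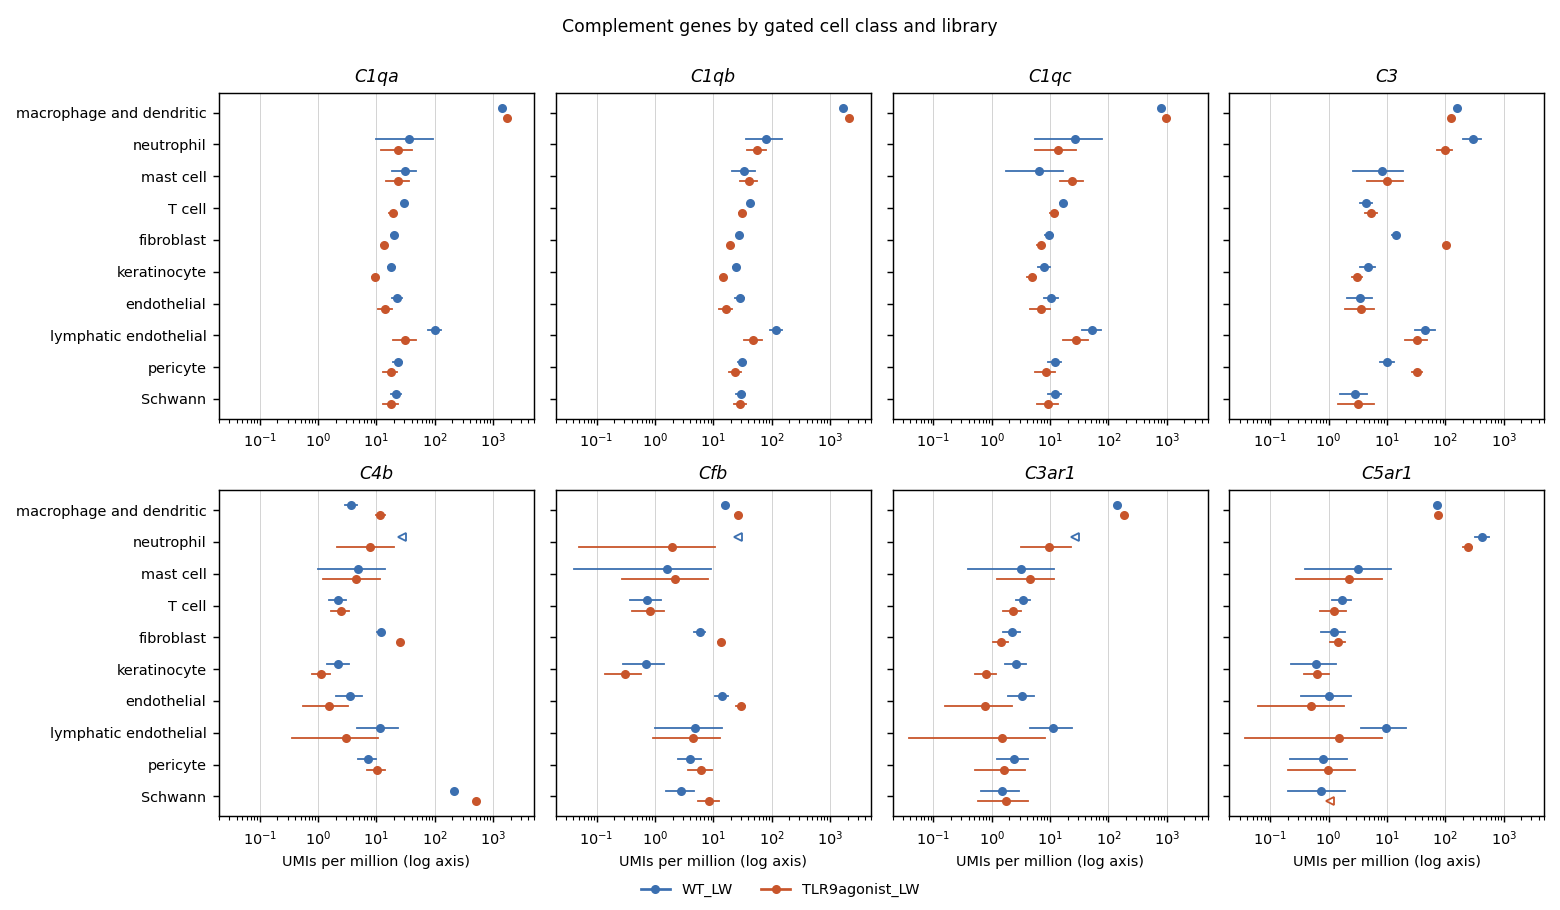
CPM of each of the 8 genes (x axis, log scale) in 10 gated classes (y axis), with WT_LW in blue and TLR9agonist_LW in red. Points are class sums, bars exact 95% Poisson intervals, and an open triangle marks the limit that a count of 0 allows (3 UMIs). The C1q genes, C3ar1 and C5ar1 stood far above the T cell level in the macrophage and dendritic gate, C4b in Schwann cells, and C3 in fibroblasts was at 14.2 and 101 CPM.

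C1q was found mainly in the macrophage and dendritic gate, which held 93.0% of C1qa UMIs in WT_LW and 90.9% in TLR9agonist_LW. In the macrophage and dendritic gate C1qa, the A chain, stood at 1391 CPM in WT_LW against 1727 CPM in TLR9agonist_LW. C1qb, the B chain, was at 1687 and 2155 CPM, and C1qc, the C chain, at 784 and 970 CPM. All 3 chains were thus higher in TLR9agonist_LW by a similar factor, and their sum was 3862 CPM against 4852 CPM (log2 ratio 0.33, 0.31 to 0.35). This small ratio depended on how the class was drawn, being 0.028 with Leiden clusters in place of the gate. It also depended on the mix of sub-gates, being 0.058 with the sub-gate mix of WT_LW. Mrc1 macrophages, the sub-gate with most C1q, were 22.4% of the gate's cells in WT_LW and 35.5% in TLR9agonist_LW. C1qa made up 36.0% of the summed UMIs in WT_LW and 35.6% in TLR9agonist_LW, so over the whole gate the balance of the chains was nearly constant. Across single cells of the gate C1qa and C1qb had a Pearson r of 0.932 over 1844 cells of WT_LW and 0.951 over 1176 cells of TLR9agonist_LW, a description of cells of 1 library that share depth.

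The summed difference hid opposite differences within the gate. Macrophages gated on Mrc1, Cd163 and like genes of resident, scavenging macrophages held most C1q, with 10057 CPM in WT_LW against 12232 CPM in TLR9agonist_LW (log2 ratio 0.28, 0.26 to 0.30). In macrophages gated on Mmp12, which encodes a secreted elastase, the chains were at 2164 and 1691 CPM (log2 ratio -0.36, -0.41 to -0.30). The markers of that sub-gate had a median of 37.8 UMIs per 10000 in WT_LW and 68.4 in TLR9agonist_LW, while Mmp12 itself was at 2712 and 1835 CPM, and their part in the C1q difference was not tested. In cells gated on Ly6c2, Plac8 and other genes of monocytes, the blood-borne precursors of macrophages, they were at 1834 and 375 CPM, 4.89-fold lower in TLR9agonist_LW (log2 ratio -2.29, -2.44 to -2.15). Cells of the class that fell into no sub-gate, 558 and 269, held 3824 and 2858 CPM (log2 ratio -0.42, -0.46 to -0.38). The chains were therefore higher in the Mrc1 gate and lower in the Mmp12 and monocyte gates and in the remaining cells, and the difference between gates was not tested. The balance of the chains was not constant in every sub-gate. C1qb made up 45.3% of the summed UMIs of Mmp12 macrophages in WT_LW and 51.0% in TLR9agonist_LW. In monocytes it made up 47.4% and 57.6%, and in Mrc1 macrophages 42.8% and 43.3%. Siglech, a gene of plasmacytoid dendritic cells, was also among the leading genes of the monocyte gate, in 10 cells of WT_LW and 4 of TLR9agonist_LW, and without these the log2 ratio was -2.28. Of the 2104 genes with at least 200 UMIs in the monocyte gate 5.28% were at least 2-fold lower in TLR9agonist_LW, as each of C1qa, C1qb and C1qc was.

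C1q in the monocyte gate came from few cells. C1qa was detected in 38.4% of 255 monocyte-gated cells of WT_LW and 21.1% of 147 of TLR9agonist_LW, and the 10% of cells with most held 70.3% and 86.0% of its UMIs. The median cell held 3.13 UMIs per 10000 of the Mrc1 macrophage markers in WT_LW and 1.61 in TLR9agonist_LW, and 7.97 of the Mmp12 markers in TLR9agonist_LW against 2.32. Of the monocyte sub-gate's own markers it held 23.6 UMIs per 10000 in WT_LW and 38.5 in TLR9agonist_LW, while Ly6c2 itself was at 826 and 565 CPM. These marker levels also differed between the libraries, and their part in the difference was not tested. In the Mrc1 gate, by contrast, C1qa was found in 94.9% of 413 cells and 98.6% of 417 cells. There the median cell held 35.6 UMIs of C1qa per 10000 in WT_LW and 41.6 in TLR9agonist_LW, so the median cell was higher as well. The sub-gate's own markers also differed, with a median of 27.4 UMIs per 10000 in WT_LW and 58.2 in TLR9agonist_LW, more than C1qa did, and Mrc1 itself was at 1083 and 1434 CPM. Their part in the C1q difference was not tested.

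Langerhans-gated cells, the dendritic cells of the epidermis, held 1181 CPM of the chains in WT_LW against 2693 CPM in TLR9agonist_LW (log2 ratio 1.19, 1.11 to 1.27). In TLR9agonist_LW this gate had 67 cells, 37.3% of them near a threshold, and its median cell held 6.68 UMIs per 10000 of the Mmp12 macrophage markers against 1.25 in WT_LW. Cd207, the langerin gene that defines these cells, was at 755 CPM in WT_LW against 2752 CPM in TLR9agonist_LW, while the median cell held 24.0 and 15.2 UMIs per 10000 of the sub-gate's markers. The part of these differences in the C1q result was not tested. Dendritic-gated cells were at 127 and 54.0 CPM, of the order of the T cell level of 88.2 and 61.2 CPM. Over all cells the chains were at 938 CPM in WT_LW against 535 CPM in TLR9agonist_LW, in which fewer cells fell into the macrophage and dendritic gate.

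**Figure D2:**
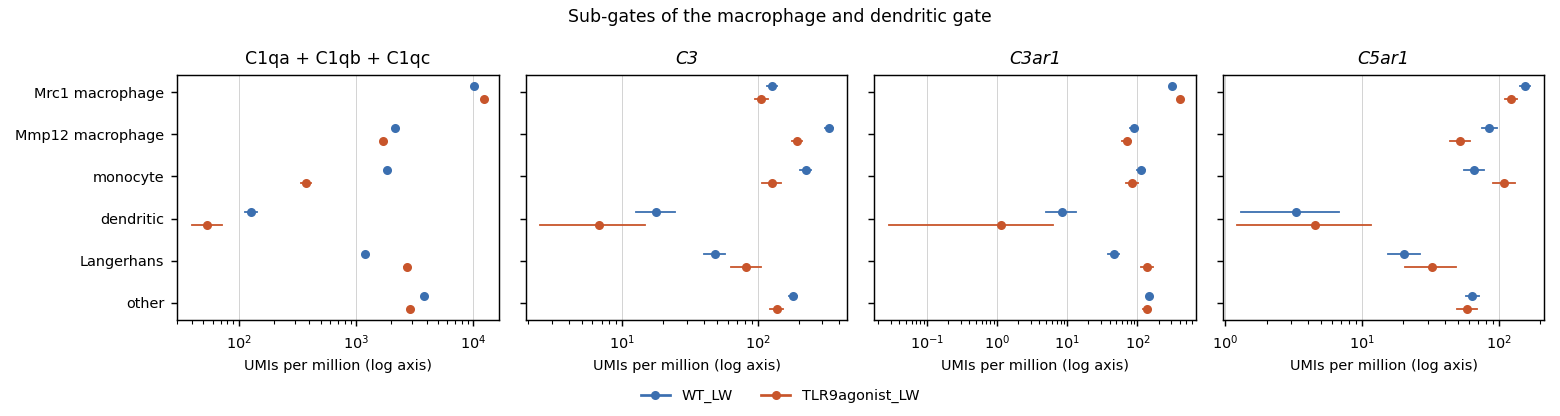
Summed C1q chains, C3, C3ar1 and C5ar1 in CPM (x axis, log scale, with a different range in each panel) in the sub-gates of the macrophage and dendritic gate (y axis), WT_LW in blue and TLR9agonist_LW in red, bars being exact 95% Poisson intervals. The C1q chains in the monocyte sub-gate lay at 1834 and 375 CPM, while those of the Mrc1 sub-gate lay at 10057 and 12232 CPM.

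Outside the macrophage and dendritic gate C1q was low, and its ratio to macrophage marker RNA was compared. For every 1000 UMIs of the gate's marker genes there were 78.4 of C1qa in the macrophage and dendritic gate of WT_LW, 74.3 in fibroblasts, 73.0 in keratinocytes and 76.6 in Schwann cells. In T cells there were 57.9. In TLR9agonist_LW the ratios lay further apart, with 116 in the macrophage and dendritic gate, 92.2 in fibroblasts, 101 in keratinocytes, 86.8 in Schwann cells, 85.0 in endothelial cells and 53.2 in T cells. In WT_LW the ratio was 4.13 in neutrophils and 6.85 in mast cells, which use some of the marker genes themselves. Lymphatic endothelial cells had more C1q, 274 CPM of the chains in WT_LW and 108 CPM in TLR9agonist_LW, at ratios of 89.9 and 119 UMIs of C1qa per 1000 marker UMIs. Thinned to 1500 UMIs per cell, 46.8% (44.4 to 49.1) of macrophage and dendritic cells of WT_LW and 52.4% (49.4 to 55.3) of TLR9agonist_LW had a C1qa UMI, beside 5.24% and 3.12% of T cells. Unthinned, the shares were 60.8% and 64.1% at median depths of 9617.5 and 8496 UMIs, beside 14.2% and 9.35% of T cells at 4343 and 4769 UMIs.

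C3, on which all activation routes meet, showed the strongest difference between the libraries among the 8 genes, and it was in fibroblasts. Fibroblast-gated cells held 14.2 CPM in WT_LW (12.4 to 16.1, 232 UMIs) and 101 CPM in TLR9agonist_LW (98.1 to 105, 3344 UMIs), 7.16-fold higher (log2 ratio 2.84, 2.65 to 3.04). T cells stood at 4.39 and 5.43 CPM. The fibroblast level was above that of T cells in both libraries, in WT_LW through the deep fibroblasts described next. Without removal of predicted doublets the fibroblast level of WT_LW was 26.5 CPM and the log2 ratio 1.82, a smaller ratio in the same direction.

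Among fibroblasts the deep ones, gated on Clec3b, Cilp and like genes of the lower dermis, carried C3. Their level was 21.5 CPM in 468 cells of WT_LW and 229 CPM in 723 cells of TLR9agonist_LW (10.7-fold, log2 ratio 3.41, 3.21 to 3.63). With doublets kept, deep fibroblasts were at 31.1 and 213 CPM, a log2 ratio of 2.77. Upper fibroblasts, gated on genes such as Crabp1, were at 4.68 and 22.0 CPM (log2 ratio 2.23, 1.65 to 2.88), and the remaining fibroblasts at 4.57 and 41.4 CPM. In WT_LW upper and remaining fibroblasts were within counting error of the T cell level of 4.39 CPM, and only the deep ones stood clearly above it. The ratios of the others are thus over a level that free RNA could give. The level was higher in TLR9agonist_LW in all 3 fibroblast sub-gates, and with the sub-gate mix of WT_LW the log2 ratio of the whole class was 3.32. In the deep gate 3.75% of 7897 genes with at least 200 UMIs were at least 2-fold higher in TLR9agonist_LW, and in the fibroblast gate 2.97% of 10077, and C3, C4b and Cfb were so in both. In the fibroblast gate C4b and Cfb were close to that limit, with log2 ratios of 0.92 and 0.81 at equal weight per cell and 0.98 for C4b with doublets kept. Clec3b, one of the gate's markers, was at 563 CPM in deep fibroblasts of WT_LW and 244 CPM in those of TLR9agonist_LW, and the part of such a shift within the gate in the C3 result was not tested.

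A minority of deep fibroblasts held the C3. It was detected in 20.1% of deep fibroblasts in WT_LW and 34.6% in TLR9agonist_LW, and the 10% of cells with most held 76.4% and 79.1% of the UMIs. The single highest cell held 28 of 199 UMIs in WT_LW and 114 of 2791 in TLR9agonist_LW. Thinned to 1500 UMIs per cell, 3.48% (2.00 to 5.59) of deep fibroblasts of WT_LW and 14.9% (12.3 to 17.7) of those of TLR9agonist_LW had a C3 UMI, beside 0.651% and 1.03% of T cells. Both the share of positive cells and the level were thus higher. Over all fibroblasts the thinned shares were 2.12% and 5.97%, and the unthinned ones 11.7% and 15.3% at medians of 15769 and 12806 UMIs.

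Of the genes detected in over 10% of deep fibroblasts of both libraries, those with the highest r to C3, taking the lower of the 2 libraries, were Cfb (0.27 in WT_LW, 0.45 in TLR9agonist_LW), C1s1 (0.22 and 0.43) and C4b (0.21 and 0.36). C1s1 encodes a protease of the C1 complex. The next was Ctsc, a lysosomal protease gene that is not part of complement (0.21 and 0.21). Cells with both C3 and Cfb numbered 31 of 468 in WT_LW and 93 of 723 in TLR9agonist_LW, and those with both C3 and C4b 23 and 101, and these weak correlations over cells of 1 library are a description only.

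In the macrophage and dendritic gate the C3 ratio lay below 0, with the Langerhans sub-gate as an exception. Over the whole gate it was at 162 CPM in WT_LW against 127 CPM in TLR9agonist_LW (log2 ratio -0.35, -0.44 to -0.26). Relative to the median gene this ratio was -0.10. In the gate 2.37% of 8149 genes with at least 200 UMIs were at least 2-fold lower and 2.29% at least 2-fold higher, and C3 was in neither group. Mmp12 macrophages held 336 and 194 CPM (log2 ratio -0.79, -0.95 to -0.64), and monocytes 226 and 127 CPM (log2 ratio -0.83, -1.11 to -0.56). In Mrc1 macrophages the levels were closer, 127 and 106 CPM, with a log2 ratio of -0.26 (-0.46 to -0.06). One cell of WT_LW held 67 of the 509 UMIs, and without the highest cell of each library the ratio was -0.10 (-0.31 to 0.10), an interval across 0. Langerhans-gated cells held 48.0 and 82.1 CPM, a log2 ratio above 0 (0.77, 0.31 to 1.22). C3 thus had its highest myeloid level in Mmp12 macrophages, unlike the C1q chains, and over macrophage and dendritic cells its r to C1qa was 0.06 in WT_LW and 0.04 in TLR9agonist_LW.

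Neutrophils held 296 CPM of C3 in WT_LW (204 to 416) and 97.5 CPM in TLR9agonist_LW (72.4 to 129), from 33 and 50 UMIs. Pericytes, the contractile cells of small vessels, held 10.1 and 33.0 CPM, from 50 and 102 UMIs (log2 ratio 1.71, 1.21 to 2.23). Unplaced cells that scored best as pericytes, 93 and 110, held a further 8 and 126 UMIs (29.1 and 154 CPM), which that ratio leaves out. Keratinocytes stood at 4.75 and 3.09 CPM, beside the T cell level of 4.39 and 5.43 CPM, and were read as background. Endothelial cells (3.52 and 3.55 CPM) and Schwann cells (2.81 and 3.18 CPM) were also at that level. Lymphatic endothelial cells, the lining of lymph vessels, held 45.6 and 32.6 CPM, from 28 and 22 UMIs, with an interval of the log2 ratio from -1.36 to 0.37.

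**Figure D3:**
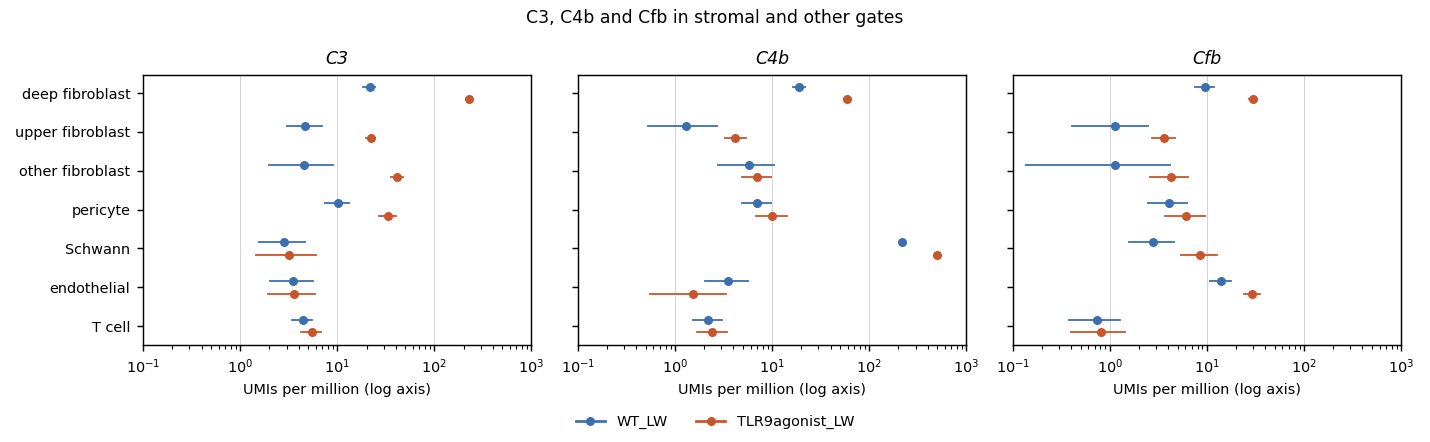
C3, C4b and Cfb in CPM (x axis, log scale) in fibroblast sub-gates, pericytes, Schwann cells, endothelial cells and T cells (y axis), WT_LW in blue and TLR9agonist_LW in red, with exact 95% Poisson intervals. In deep fibroblasts all 3 genes were higher in TLR9agonist_LW, C3 at 21.5 and 229 CPM, and C4b stood highest in Schwann cells.

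C4b encodes the classical and lectin pathway component that C1s cuts, and among classes of at least 10 cells in each library it was highest in Schwann cells, the glia of peripheral nerve. The 5 melanocyte-gated cells of WT_LW held 15 UMIs, or 417 CPM, and the 2 of TLR9agonist_LW held none. Schwann-gated cells held 215 CPM in WT_LW (203 to 228, 1151 UMIs) and 505 CPM in TLR9agonist_LW (479 to 531, 1426 UMIs), against 2.19 and 2.42 CPM in T cells. The log2 ratio was 1.23 (1.12 to 1.34), and 2.01% of 5870 genes with at least 200 UMIs in that gate were at least 2-fold higher, C4b among them. Schwann cells held 68.8% of all C4b UMIs in WT_LW and 52.2% in TLR9agonist_LW. The gene was widespread in the gate, with at least 1 UMI in 55.5% of 687 and 77.2% of 400 cells, and in 28.1% (24.7 to 31.7) and 46.9% (41.9 to 51.9) after thinning, beside 0.391% and 0.435% of T cells.

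Over single Schwann cells C4b varied with Apoe (r 0.47 in WT_LW and 0.69 in TLR9agonist_LW), Col20a1 (0.50 and 0.49) and Serpina3n (0.40 and 0.40). C4b stood at 20.5 UMIs per 1000 fibroblast marker UMIs in Schwann cells of WT_LW and 63.8 in those of TLR9agonist_LW, and at 0.138 and 0.255 in fibroblasts.

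Among fibroblasts C4b too was highest in the deep ones. Deep fibroblasts held 19.0 CPM in WT_LW against 59.7 CPM in TLR9agonist_LW (176 and 728 UMIs, log2 ratio 1.65, 1.41 to 1.90), and upper fibroblasts 1.31 and 4.18 CPM, near the T cell level. All fibroblasts together stood at 11.8 and 25.2 CPM (log2 ratio 1.09, 0.87 to 1.33). Mrc1 macrophages held 6.51 and 28.4 CPM, from 26 and 93 UMIs (log2 ratio 2.13, 1.49 to 2.81). Across the macrophage and dendritic gate C4b was at 3.69 and 11.6 CPM (log2 ratio 1.65, 1.22 to 2.09), from 71 and 128 UMIs.

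Cfb, the source of factor B, stood furthest above the T cell level in 3 classes, fibroblasts, endothelial cells and the macrophage and dendritic gate. Deep fibroblasts held 9.49 CPM in WT_LW against 29.8 CPM in TLR9agonist_LW (88 and 364 UMIs, log2 ratio 1.65, 1.31 to 2.01), the same ratio as C4b by coincidence of the counts. Endothelial cells, the lining of blood vessels, held 13.9 and 29.4 CPM (67 and 116 UMIs, log2 ratio 1.08, 0.64 to 1.54), a class in which 3.83% of 5644 genes with at least 200 UMIs were at least 2-fold higher. Cfb had fewer UMIs than that there, so it is not one of the 5644. T cells had 0.732 and 0.807 CPM. Cfb was thus higher in TLR9agonist_LW in both stromal classes.

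In the macrophage and dendritic gate Cfb was at 15.97 CPM in WT_LW against 26.5 CPM in TLR9agonist_LW (log2 ratio 0.73, 0.49 to 0.96). A single cell of TLR9agonist_LW held 57 of the 293 UMIs, and without the highest cell of each library the log2 ratio was 0.47. Mrc1 macrophages held 14.8 and 24.7 CPM, and monocytes 28.3 and 20.98 CPM with an interval of the log2 ratio from -1.18 to 0.28. Mmp12 macrophages held 34.7 and 50.3 CPM, from 103 and 136 UMIs. The cell with 57 UMIs was among these, as no other sub-gate had a cell that high. The higher Cfb level of Mmp12 macrophages in TLR9agonist_LW rests on that cell. In fibroblasts as a whole Cfb was at 5.87 and 13.4 CPM (log2 ratio 1.19, 0.87 to 1.53). Schwann cells held 2.81 and 8.49 CPM, from 15 and 24 UMIs (log2 ratio 1.60, 0.61 to 2.63). In keratinocytes Cfb was at 0.707 and 0.302 CPM, from 7 and 9 UMIs.

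C3ar1, the receptor for C3a, had the distribution of C1q. In the macrophage and dendritic gate it stood at 137 CPM in WT_LW against 182 CPM in TLR9agonist_LW (log2 ratio 0.40, 0.32 to 0.49, and 0.13 with Leiden clusters), and 91.2% and 89.1% of its UMIs were in that gate. Mrc1 macrophages held 309 and 399 CPM (log2 ratio 0.37, 0.26 to 0.48) and Langerhans-gated cells 46.2 and 136 CPM. Mmp12 macrophages held 87.9 and 70.7 CPM, and monocytes 112 and 84.8 CPM (log2 ratio -0.40, -0.75 to -0.05). Relative to the median gene of each sub-gate, the C3ar1 ratios were 0.50 in Mrc1 macrophages, -0.09 in Mmp12 macrophages and -0.16 in monocytes. The direction thus differed between sub-gates, but the ratios below 0 lay close to those of the median gene. The C1q chains in monocytes were at -2.06 relative to it. The difference between sub-gates was not tested. T cells stood at 3.41 and 2.27 CPM, and fibroblasts, Schwann cells and pericytes at no more than 2.42 CPM in either library.

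C5ar1, the receptor for C5a, was the only one of the 8 genes with its highest class level in neutrophils of both libraries. Neutrophils held 431 CPM in WT_LW (317 to 571) and 246 CPM in TLR9agonist_LW (205 to 293), from 48 UMIs in 46 cells and 126 UMIs in 205 cells (log2 ratio -0.81, -1.30 to -0.30). With more neutrophils, TLR9agonist_LW had 10.8% of its C5ar1 UMIs in them and WT_LW 2.99%. After thinning 36.6% (22.1 to 53.1) and 31.5% (24.7 to 38.8) of neutrophils had a C5ar1 UMI, intervals that overlap, beside 0.293% and 0.119% of T cells. In the macrophage and dendritic gate the levels were 73.3 and 75.2 CPM (log2 ratio 0.04, -0.09 to 0.16), a difference not detectable at this depth, whose direction turned under some alternatives. Within that gate Mrc1 macrophages held 155 and 123 CPM (log2 ratio -0.33, -0.52 to -0.15), Mmp12 macrophages 84.9 and 51.8 CPM (-0.71, -1.02 to -0.41), and monocytes 65.7 and 109 CPM (0.73, 0.37 to 1.09). In monocytes C5ar1 and C1q thus differed in opposite directions between the libraries. The markers of that sub-gate also differed, as given above, and their part in the C5ar1 difference was not tested. C3ar1 was not detected in the 46 neutrophils of WT_LW and had 5 UMIs in those of TLR9agonist_LW, and the 0 allows up to 26.9 CPM.

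**Figure D4:**
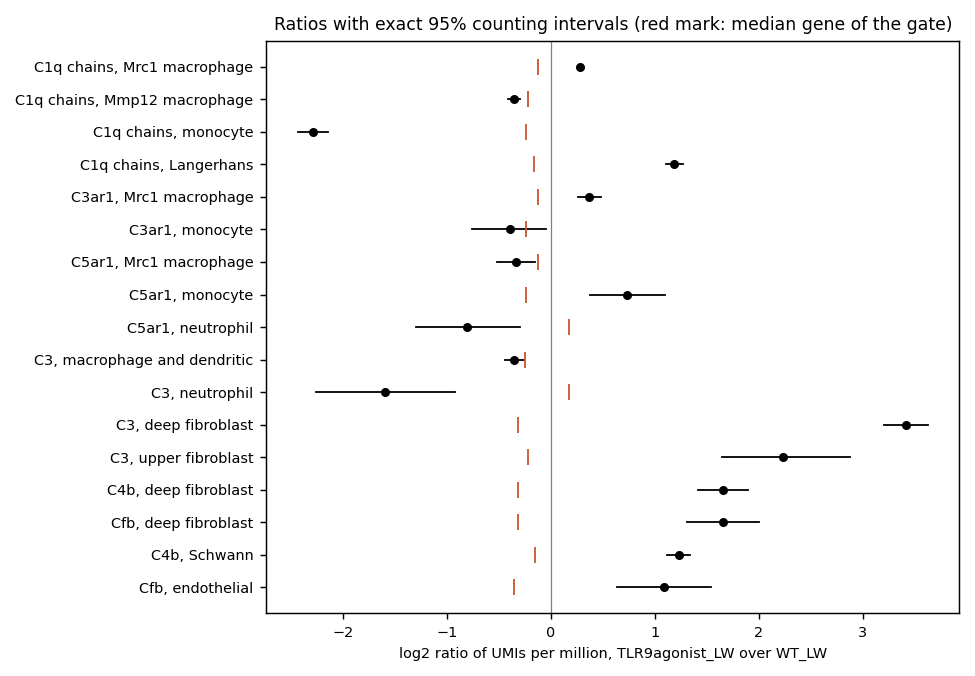
Log2 ratio of CPM, TLR9agonist_LW over WT_LW (x axis), for members in the gates named on the y axis, with exact 95% counting intervals; red marks give the ratio of the median gene of the gate. C3 in deep fibroblasts lay at 3.41 and the C1q chains of the monocyte gate at -2.29.

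A list of 45 other complement genes was set beside the 8, of which 44 were in the count table, 22 had at least 200 UMIs over both libraries, and 4 (Mbl1, Cfd, C8a and C8b) had none. For Cfd, which encodes the protease that activates factor B, the 0 allows up to 0.0352 CPM in WT_LW and 0.0270 CPM in TLR9agonist_LW. In fibroblasts 14 of the list had at least 200 UMIs, and the interval of the ratio lay above 0 for 7, below 0 for 6 and across 0 for 1. Of all 10077 genes it lay above 0 for 15.9% and below 0 for 59.3%. The list had a median log2 ratio of 0.07 beside -0.28 for all genes. In deep fibroblasts it was 6 above and 5 below of 11, beside 15.4% above and 58.5% below over all genes, with a median of 0.30 beside -0.32.

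Those above 0 in deep fibroblasts were 2 regulators and, by the list, genes of classical and lectin activation. C1ra, a protease of the C1 complex, was at 111 and 274 CPM (log2 ratio 1.31), C1s1 at 274 and 371 CPM (0.44), and C2, the partner of C4, at 31.6 and 83.1 CPM (1.40), although the same readthrough gene makes its counts uncertain too. Serping1, which encodes the C1 inhibitor, was at 409 and 886 CPM (1.11), and Cd59a, a blocker of the membrane attack complex, at 14.3 and 36.2 CPM (1.33). Colec12, a scavenger receptor that the list places with the activators, was at 110 and 136 CPM (0.30). Components and an inhibitor of the classical pathway were thus higher in the same gate as C3 and C4b.

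Among those below 0 was Cd55, a membrane protein that breaks up the C3-cleaving enzymes, at 335 and 111 CPM (-1.60). Cr1l, another membrane regulator, was at 56.1 and 38.9 CPM (-0.53), Lrp1, a receptor that takes up ligands, at 377 and 325 CPM (-0.22, above the median gene), and Calr, the chaperone calreticulin, to which C1q can bind, at 1083 and 698 CPM (-0.63). Over all fibroblasts Hc, the gene of C5 in the mouse, was at 2.87 and 6.86 CPM (1.26) beside 0.30 and 0.15 CPM in T cells.

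In the macrophage and dendritic gate 13 of the list had at least 200 UMIs, 4 with an interval above 0, 7 below and 2 across it, beside 14.1% above and 54.7% below over all genes, with a median log2 ratio of -0.15 beside -0.25 for all genes. C5ar2, the other C5a receptor, was at 5.88 and 10.7 CPM (0.86), against 0.12 and 0.66 CPM in T cells. Serping1 was at 6.40 and 14.4 CPM (1.17), below the 9.76 and 21.2 CPM of T cells, and is read as background there. Cfp, the gene of properdin, which stabilises the alternative pathway enzyme, was at 200 and 181 CPM (-0.15). Of the subunits of complement receptors 3 and 4, Itgam was at 205 and 173 CPM (-0.25) and Itgb2 at 195 and 158 CPM (-0.30), close to the median gene, and Itgax at 134 and 74.99 CPM (-0.84). In Schwann cells Cd59a was at 431 and 498 CPM (0.21), and in endothelial cells Clu at 124 and 185 CPM (0.57) and Cd93 at 1314 and 920 CPM (-0.51).

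Across 9 classes and both libraries, 18 points that share libraries, the 3 genes most like each member were found, with the other members left out. Neutrophils, with 46 cells in WT_LW, were not among these classes, although they held the highest C5ar1 level. For C1qa they were AF251705 (Pearson r 0.99 of log2(CPM + 1)), H2-Eb1 (0.99) and Cybb (0.99), for C1qb Aif1 (0.99), AF251705 (0.99) and Ms4a7 (0.98), and for C1qc Ms4a7 (0.99), Aif1 (0.99) and Klra2 (0.98). C3ar1 was likest Aif1 (0.99), AF251705 (0.99) and Lyz2 (0.98), and C5ar1 Aif1 (0.98), Clec4a3 (0.98) and Cd207 (0.97). Aif1, Cybb and Lyz2 were among the class markers of the gate, and Cd207 among those of its Langerhans sub-gate. Among the members themselves, r was 0.997 for C1qa and C1qb, higher than for any gene named for either. C4b was nearest to Nfasc (0.96), Xkr4 (0.94) and Nkain4 (0.94), of which Nfasc is a gene of the node of Ranvier. Cfb was nearest to Ankrd33b (0.90), Tnfaip2 (0.89) and Rgl1 (0.88), and C3 to Atp6ap2 (0.83), Tmem106a (0.83) and AI607873 (0.82), the lowest likeness among the 8 members.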

How the data were processed

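Single-cell RNA of healed wound skin was captured with 10x Genomics 3′ chemistry (the labels leave v2 or v3 open). The deposited values were whole-number UMI counts per gene and cell, made by the authors with Cell Ranger (4.0.0 per the file headers). The submitters' processing notes also name fastp, Seurat and the build mm9. The deposited barcode and feature tables hold text and were used as names. The labels say that PBS or agonist was sprayed on, the paper's results text that agonist was added dropwise.

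From these counts, cells with at least 500 UMIs, 300 genes and at most 15% mitochondrial UMIs were kept (11443 of 12800 in WT_LW, 13206 of 13751 in TLR9agonist_LW). Cells with the highest doublet scores, at 0.8% per 1000 cells, were removed (1088 and 1413), a threshold that took 45.5% and 53.4% of simulated doublets. A cell entered a class where its marker score reached 0.25, led the next class by 0.15 and rested on 3 markers. Sub-gates needed 0.15 and a lead of 0.05, and cells within 0.05 of a threshold counted as near it. For each class and library, the UMIs of a gene were divided by those of all genes (CPM), with an exact Poisson interval on the gene's UMIs. Ratios have the exact interval given the total, and shares Clopper-Pearson intervals. Intervals and limits cover counting error only. Where a count was 0, the limit is 3 UMIs. Shares of cells with a UMI were taken after thinning to 1500 UMIs, leaving out shallower cells. Ratio counts and intervals were tested on simulated data, whose outcome is not given here and on which no result rests.

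The genes named were the 8 members, other complement genes with at least 200 UMIs in a class (some are counted but not reported here by name), and the 3 genes likest each member by Pearson r of log2(CPM + 1) over classes with at least 50 cells in each library, of 13300 genes. Members and lists were chosen with earlier results of these data known. Siglech and Clec3b and the partners of C3 and C4b over single cells were named after their values were seen. Alternatives were a stricter cell filter (1500 UMIs, 800 genes, 8%), doublets kept, Leiden clusters, a stricter gate, equal weight per cell, median-gene scaling and the T cell level subtracted. The work was done with scanpy 1.11.5, leidenalg 0.10.2, scipy 1.17.1, numpy 2.4.6, pandas 2.3.3 and matplotlib 3.10.9 in Python 3.11.15.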

Additional observations from a re-analysis of the deposited data

Results flagged for a closer look

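Several members had ratios of opposite direction in different cell types. The C1q chains had a log2 ratio of TLR9agonist_LW over WT_LW of 0.28 in the Mrc1 macrophage gate and of -2.29 in the monocyte gate. C3 had a log2 ratio of 2.84 in fibroblasts and of -0.35 in the macrophage and dendritic gate. C3ar1 had a log2 ratio of 0.37 in the Mrc1 macrophage gate and of -0.40 in the monocyte gate, the latter -0.16 relative to the median gene. C5ar1 had a log2 ratio of -0.33 in the Mrc1 macrophage gate and of 0.73 in the monocyte gate. With 1 library per group, none of these differences between cell types was tested.

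C4b also appeared in cells that no gate took, which enter no gate value above but do enter the totals over all cells. It was at 18.5 CPM in WT_LW (124 UMIs) and 20.3 CPM in TLR9agonist_LW (234 UMIs), above the T cell level of 2.19 and 2.42 CPM. Of these UMIs 75 and 129 were in cells that scored best as Schwann cells.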

How the results depend on the processing

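Of 18 ratios, 17 kept their direction under every alternative run, and so did 162 of 165 values. The exception was C5ar1 in the macrophage and dendritic gate, which turned to -0.16 with Leiden clusters, -0.14 with the sub-gate mix of WT_LW and -0.014 with equal weight per cell, and was at 0.29 with median-gene scaling. In that gate the C1q chains had log2 ratios of 0.028 with Leiden clusters, 0.44 with the stricter gate, 0.46 with equal weight per cell, 0.58 with median-gene scaling and 0.058 with the WT_LW mix, and C3ar1 had 0.13, 0.50 (stricter gate), 0.65 (median gene) and 0.22 (mix). C3 in fibroblasts was at 1.82 with doublets kept, 2.44 with equal weight per cell, 3.12 with median-gene scaling, 3.29 with the T cell level subtracted and 3.32 with the mix, and its share of positive cells without thinning was 11.7% and 15.3%. In fibroblasts C4b was at 0.92 with equal weight per cell, 0.98 with doublets kept, 1.37 with median-gene scaling and 1.61 with the mix, and Cfb at 0.81 with equal weight per cell and 1.66 with the mix. C3 in keratinocytes was at -1.17 with equal weight per cell, and no value could be had with the T cell level subtracted, which in TLR9agonist_LW is above the level itself. The cause of these shifts was not tested. Among the ratios not in the plan, C1q in the monocyte gate ranged from -2.48 to -1.85, C3 in deep fibroblasts from 2.77 to 3.73 and C4b in Schwann cells from 1.07 to 1.39. The mix, the shared barcodes, the highest cells, the unthinned shares and the Siglech cells were alternatives chosen after seeing the data, and Leiden clusters were not run for sub-gates. No paired analysis was possible because each group is 1 library. Depth limits the neutrophil values, which rest on 46 cells in WT_LW.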
